A study of Mus musculus with 18 samples.

Results

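The genes described here are 7 ligands of the epidermal growth factor (EGF) family (Areg, Ereg, Epgn, Hbegf, Tgfa, Btc and Nrg1) and 3 of their ERBB receptors (Egfr, Erbb2 and Erbb3). They were listed by gene name, with earlier results of these data known, and each was read from the probe set of its symbol with the highest mean over 18 arrays. Of the 10 genes listed, 9 had a named probe set, 1 each, among 19938 genes in all. Areg, the gene of amphiregulin, has no value here because no probe set carried its symbol alone. All 9 measured genes were among the 17316 genes tested, which had to exceed an array's 25th percentile on at least 3 arrays. Epgn did so on 4 of 18 arrays, from both tissues, and was above no array's median, so its values lie close to the dim end of the scale; the other 8 exceeded the 25th percentile on all 18 arrays.

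EGF-family ligands are made as membrane-anchored precursors that metalloproteases cut free. They bind receptors of the ERBB family, which pair up and switch on the RAS-ERK and PI3 kinase cascades. In the intestine this signalling is known to support the growth of crypt cells, and inhibitors that the pathway induces itself hold it back.

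RNA was measured on 18 arrays, 1 per sample, in 6 groups of 3. Tumour groups were male tumor Stat3-/-, male tumor Stat3fl/fl, female tumor Stat3-/- and female tumor Stat3fl/fl, and the epithelial groups were IEC Stat3-/- and IEC Stat3fl/fl (IEC, intestinal epithelial cells). Stat3-/- stands for floxed Stat3 deleted by Cre, expressed from the Villin promoter that is active in intestinal epithelium, so other cells of a tumour keep Stat3; Stat3fl/fl samples carry the floxed alleles. The series text places both genotypes on the APCmin/+ background, a mutant Apc allele that gives intestinal tumours, while the labels of the epithelial samples give neither Apc genotype nor sex. The sample descriptions name chemically induced colorectal tumours and the series text mainly small-intestinal ones, so the treatment and the gut segment of the tumours are not settled. No age, batch or scan date is given, and nothing says that samples of a group came from separate animals, so the spread behind each p-value may be partly or wholly technical.

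Array medians lay between 5.88 and 6.07 on the log2 scale. Stat3 itself was lower in Stat3-/- samples in each of the 3 pairs of groups, with differences of -2.09 to -1.87 log2, without overlap, which matches the labels. Xist, of the inactive X chromosome, read 3.81 to 4.20 in male tumours, 9.77 to 10.45 in female tumours and 3.92 to 4.46 in IEC, and the Y-linked Eif2s3y read 7.71 to 8.55, 2.74 to 3.35 and 7.31 to 8.29 in the same groups, so all 6 IEC arrays read like male tumours. A pair of tumours stood apart: replicate 9 (male, Stat3fl/fl) and replicate 15 (female, Stat3fl/fl) had Hoxd13, a hindgut transcription factor, at 8.25 and 9.10, against 4.82 to 5.59 in the other 10 tumours, and Gata4, a factor of the proximal gut, at 6.92 and 6.84, against 8.86 to 9.86. The mean of the posterior gut markers (Hoxd13, Car1, Hoxb13) also set both apart, at 9.32 and 9.18, against 4.61 to 6.16. That of the small-intestinal markers (Gata4, Fabp6, Slc10a2) did not, at 5.97 and 6.81, against 5.85 to 9.23. Values without replicates 9 and 15 are given beside the results that they move. Tumours were pieces of tissue and the IEC samples were epithelial cells: all 8 fibroblast and matrix markers were higher in tumours of either genotype, with array means of 9.21 to 10.93 in tumours and 6.13 to 6.68 in IEC. Smooth muscle markers (7.56 to 9.52, against 5.67 to 6.25) and endothelial markers (7.32 to 7.89, against 5.30 to 5.68) were also all higher. Markers of epithelium as a whole lay at 11.67 to 12.23 in tumours and 11.51 to 11.85 in IEC. On such samples, fewer cells of a type and less RNA per cell cannot be told apart.

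Of the ligand genes, Epgn, Ereg, Areg and Btc lie next to each other within 375 kb of chromosome 5 (chr5:91027517-91402994, build GRCm38.p6) and are the only 4 protein-coding genes in that interval in the RefSeq gene table. Tgfa lies on chromosome 6, Nrg1 on 8, Hbegf on 18, Egfr and Erbb2 on 11 and Erbb3 on 10. Promoters of 6 of the 10 genes were in the RefSeq promoter table. The 4 that also passed a test below are shown, because they can be set beside their values: the 250 bases before the annotated start, 5′ to 3′ on the gene's strand, with CpG dinucleotides in capitals. They lie at chr5:91027267-91027516 on the plus strand (Epgn), chr5:91402995-91403244 on the minus strand (Btc), chr11:16751953-16752202 on the plus strand (Egfr) and chr11:98412234-98412483 on the plus strand (Erbb2).
Epgn: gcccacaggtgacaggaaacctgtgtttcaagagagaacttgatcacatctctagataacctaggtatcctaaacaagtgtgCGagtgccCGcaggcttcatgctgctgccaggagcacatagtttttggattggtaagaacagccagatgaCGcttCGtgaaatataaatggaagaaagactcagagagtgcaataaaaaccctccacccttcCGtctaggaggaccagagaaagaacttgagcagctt
Btc: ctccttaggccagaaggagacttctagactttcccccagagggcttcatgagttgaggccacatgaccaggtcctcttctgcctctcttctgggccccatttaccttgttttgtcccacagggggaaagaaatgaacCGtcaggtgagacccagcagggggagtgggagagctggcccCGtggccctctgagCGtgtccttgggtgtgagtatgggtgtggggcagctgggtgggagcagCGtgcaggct
Egfr: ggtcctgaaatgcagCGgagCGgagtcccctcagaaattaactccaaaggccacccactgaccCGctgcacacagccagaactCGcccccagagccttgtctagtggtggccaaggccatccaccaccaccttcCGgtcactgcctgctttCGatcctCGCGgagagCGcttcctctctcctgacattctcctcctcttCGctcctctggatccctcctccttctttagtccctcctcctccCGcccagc
Erbb2: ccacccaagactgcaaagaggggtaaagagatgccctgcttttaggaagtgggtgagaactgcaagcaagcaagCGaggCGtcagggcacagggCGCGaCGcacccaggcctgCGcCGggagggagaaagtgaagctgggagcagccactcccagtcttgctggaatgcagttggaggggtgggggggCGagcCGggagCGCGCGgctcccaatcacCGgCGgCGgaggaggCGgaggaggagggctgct
The promoters of the receptors held 11 CpG (Egfr) and 16 CpG (Erbb2) and those of the ligands 5 (Epgn) and 4 (Btc), against a median of 6 over all promoters of the same length; Areg had 15 and Tgfa 19. The following motifs were searched on both strands in all 6 promoters: the STAT motif TTCNNNGAA, the AP-1 motif TGANTCA and the TCF/LEF motif CTTTGAT, with its reverse ATCAAAG. None of them was present in any of the 6 windows, and they occurred in 7.02%, 6.75% and 3.21% of all 32851 promoters. The absence of these letters from a window gives no information on binding by the factors.

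**Figure D1:**
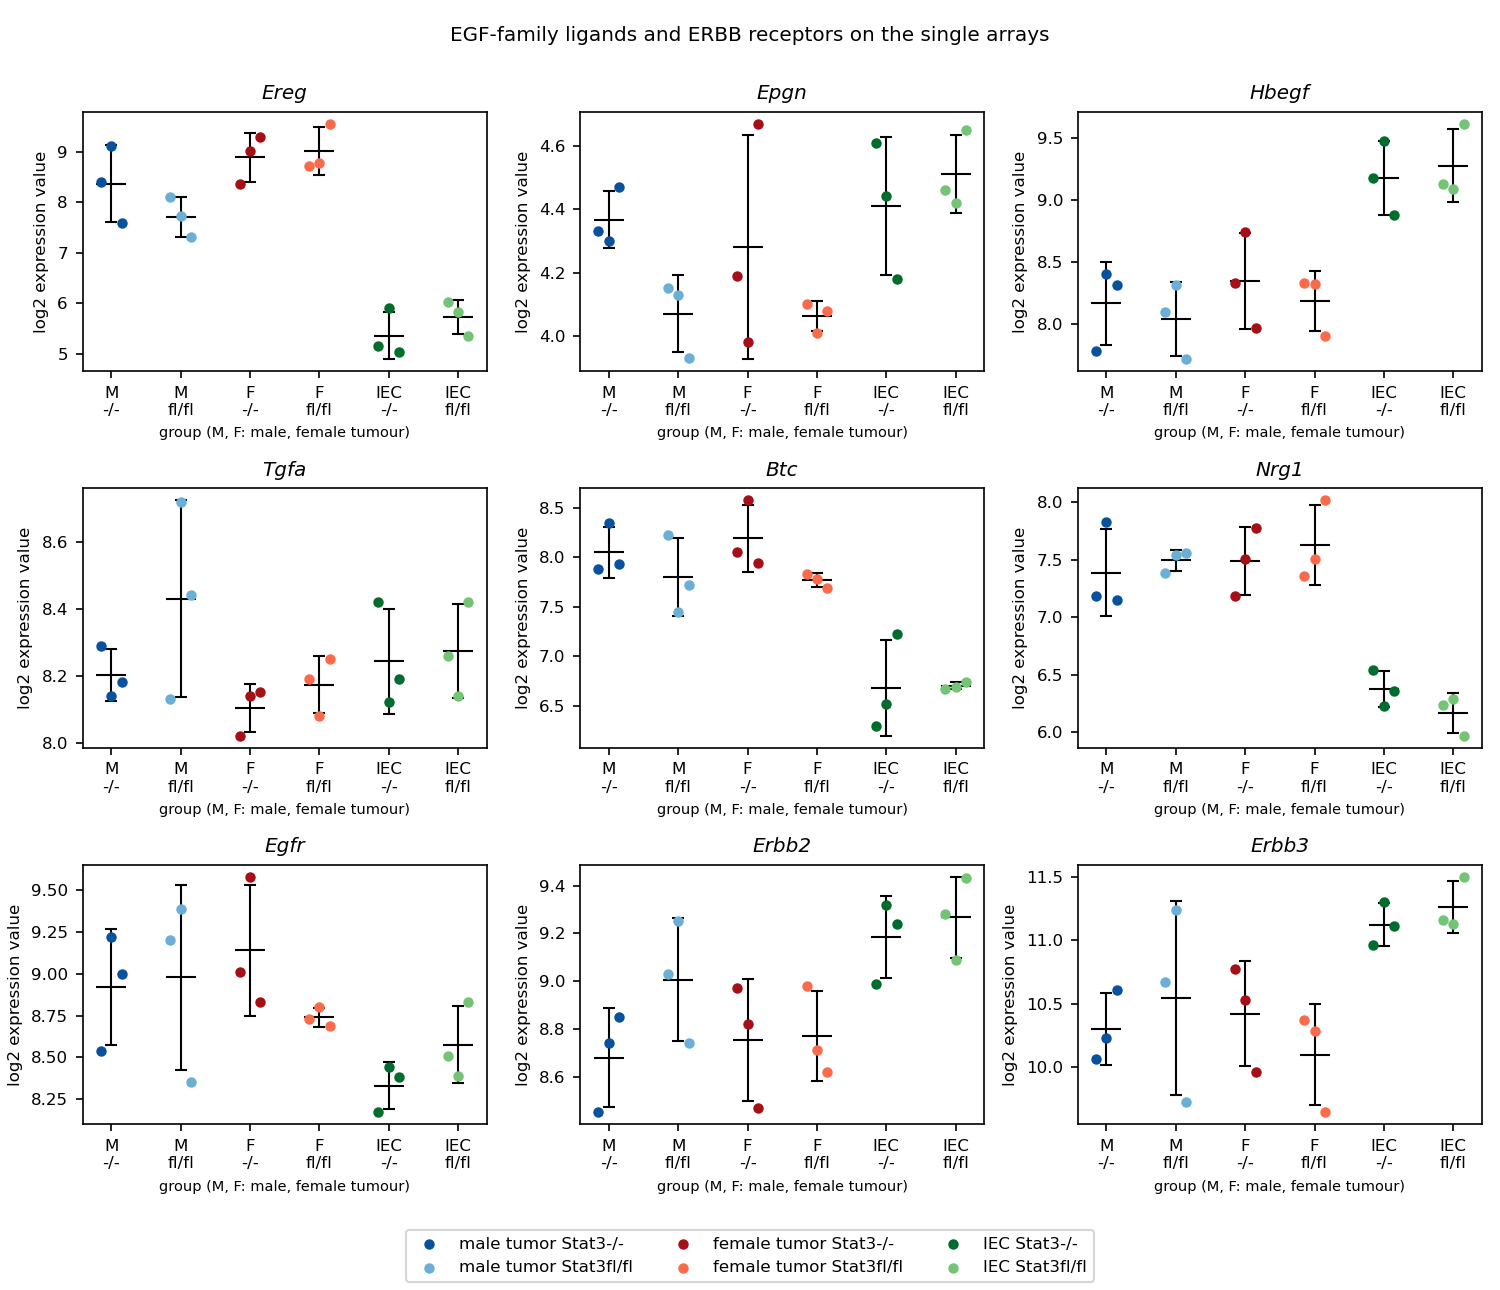
Log2 values of the 9 measured genes (vertical axis) on each of 18 arrays, by group (horizontal axis). Points are arrays, short horizontal lines are group means and error bars are the standard deviation within a group. For Ereg, Btc and Nrg1 all 12 tumour arrays lie above all 6 IEC arrays, and for Hbegf all 12 lie below.

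Tumours were compared with epithelial cells of the same genotype. In Stat3-/- tissue, Ereg, Btc, Nrg1 and Egfr were higher in tumours and Hbegf, Erbb3 and Erbb2 were lower; in Stat3fl/fl tissue, Ereg, Nrg1 and Btc were higher and Hbegf, Erbb3, Epgn and Erbb2 were lower. Limma's moderated test, with Benjamini-Hochberg adjustment over 17316 genes and an adjusted p under 0.05, thus called 7 of 9 genes in Stat3-/- tissue (4 higher, 3 lower) and 7 of 9 in Stat3fl/fl tissue (3 higher, 4 lower). It called 66.5% of all genes in Stat3-/- tissue (30.3% higher, 36.2% lower) and 65.7% in Stat3fl/fl tissue (30.4% higher, 35.3% lower), so a share of 77.8% of 9 genes is near the background and is not a result about the family. The median difference of the 9 genes was -0.09 in Stat3-/- tissue and 0.03 in Stat3fl/fl tissue, against -0.07 and -0.08 over all genes. The comparisons in the 2 genotypes share no samples, and 6 of 9 genes passed in the same direction in both, against 54.3% of all genes. The 12 tumour and 6 IEC arrays did not overlap for 4 of 9 genes, against 32.4% of all genes. For tumours and IEC of a single genotype, and for male and female tumours, the share of all genes without overlap was not counted. Non-overlap given below for those groups only describes the arrays.

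Ereg encodes epiregulin, a ligand of EGFR and ERBB4, and had the widest range of the family, with group means spanning 3.65. It read 8.41, 9.11 and 7.59 in male and 8.36, 9.01 and 9.30 in female Stat3-/- tumours, against 5.15, 5.90 and 5.03 in IEC Stat3-/-. Stat3fl/fl tumours read 8.11, 7.72 and 7.31 in males and 8.72, 8.77 and 9.56 in females, against 6.02, 5.82 and 5.36 in IEC Stat3fl/fl. Every tumour was above every epithelial sample; neighbouring tumour groups in the order of means overlapped, as did the 2 IEC groups. Ereg was above the array median in 13 of 18 arrays, the 12 tumours and 1 IEC array. The difference was 3.26 ± 0.32 log2 (SE, 9.61-fold, adjusted p = 1.56e-06 with limma) in Stat3-/- tissue and 2.63 ± 0.32 (6.19-fold, 7.2e-06) in Stat3fl/fl tissue. Without replicates 9 and 15, the Stat3fl/fl value was 2.59. Since the IEC arrays read as male, the male tumours were also compared alone, a choice made after seeing the data: Ereg was then higher by 3.0 log2 (8.02-fold) in Stat3-/- and by 1.98 (3.94-fold, adjusted p = 0.000986) in Stat3fl/fl tissue.

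Btc, the gene of betacellulin, which binds EGFR and ERBB4, was higher in tumours. Stat3-/- tumours read 7.88, 8.35 and 7.93 in males and 8.06, 8.58 and 7.94 in females, against 6.29, 6.52 and 7.22 in IEC Stat3-/-. Stat3fl/fl tumours read 8.23, 7.45 and 7.72 in males and 7.83, 7.78 and 7.69 in females, against 6.67, 6.69 and 6.74 in IEC Stat3fl/fl. All tumours lay above all epithelial samples, by 1.45 ± 0.21 log2 (2.73-fold, adjusted p = 4.88e-05 with limma) in Stat3-/- and 1.08 ± 0.21 (2.12-fold, 0.000394) in Stat3fl/fl tissue. The Stat3fl/fl value was 1.13 without replicates 9 and 15.

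Nrg1, the gene of neuregulin 1, is a ligand of ERBB3 and ERBB4 and is known in the gut from mesenchymal cells. It read 7.19, 7.83 and 7.15 in male and 7.19, 7.51 and 7.78 in female Stat3-/- tumours, against 6.54, 6.23 and 6.36 in IEC Stat3-/-. In Stat3fl/fl tumours it read 7.39, 7.54 and 7.56 in males and 7.36, 7.51 and 8.02 in females, against 6.24, 6.29 and 5.97 in IEC Stat3fl/fl. Tumours were again above all IEC samples, by 1.07 ± 0.18 log2 (2.1-fold, adjusted p = 0.000161 with limma) in Stat3-/- and 1.40 ± 0.18 (2.63-fold, 1.31e-05) in Stat3fl/fl tissue, and by 1.28 in Stat3fl/fl without replicates 9 and 15. The fibroblast, smooth muscle and endothelial markers above moved the same way. So did macrophage markers, at 6.53 to 8.26 in tumours and 5.43 to 5.81 in IEC (5 of 6 higher in Stat3-/- and 6 of 6 in Stat3fl/fl tissue), and neutrophil markers, at 5.45 to 8.01 and 4.52 to 5.01 (2 of 5 and 4 of 5 higher). Neutrophil markers read 7.47 and 8.01 in replicates 9 and 15, against 5.45 to 7.14 in the other 10 tumours. Without these replicates, 4 of 5 neutrophil markers were higher in Stat3-/- and 3 of 5 in Stat3fl/fl tissue, and macrophage markers 6 of 6 and 5 of 6. Crypt base markers lay at 8.46 to 9.28 in tumours and 7.04 to 7.71 in IEC (3 of 5 higher in Stat3-/- and 4 of 5 in Stat3fl/fl tissue). The part of these lists in the higher Ereg, Btc and Nrg1 values was not tested.

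Hbegf encodes the heparin-binding EGF-like ligand and moved the other way. It read 7.78, 8.40 and 8.31 in male and 8.33, 8.74 and 7.96 in female Stat3-/- tumours, against 9.18, 9.48 and 8.88 in IEC Stat3-/-. The values in Stat3fl/fl tumours were 8.09, 8.31 and 7.71 in males and 8.33, 8.32 and 7.90 in females, against 9.13, 9.09 and 9.62 in IEC Stat3fl/fl. All tumours were below all epithelial samples. Hbegf was lower, with a difference of -0.93 ± 0.21 log2 (adjusted p = 0.00137 with limma) in Stat3-/- and -1.17 ± 0.21 (0.000237) in Stat3fl/fl tissue, and -1.02 in Stat3fl/fl without replicates 9 and 15. With weights for array quality, the Stat3-/- difference was -0.60 and still called. Hbegf is known to respond fast to tissue handling. The 8 measured handling-response genes, among them Fos and Jun, had array means of 7.58 to 8.12 in tumours and 8.37 to 8.96 in IEC. Of these genes, 6 of 8 were lower in Stat3-/- and 4 of 8 in Stat3fl/fl tissue, and 6 and 5 without replicates 9 and 15. Their part in the Hbegf difference was not tested. Markers of absorptive enterocytes had array means of 9.13 and 8.74 in replicates 9 and 15, 10.92 to 12.16 in the other 10 tumours and 12.57 to 13.01 in IEC. Of 8, the test called 1 lower in Stat3-/- and 8 in Stat3fl/fl tissue, and 7 and 8 once replicates 9 and 15 were left out. Those of T and NK cells lay at 5.53 to 7.03 in tumours and 7.06 to 9.52 in IEC (7 of 7 lower in Stat3-/- and 4 of 7 in Stat3fl/fl tissue); the part of either in the lower Hbegf, Erbb3 and Erbb2 values was not tested.

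Epgn encodes epigen, an EGFR ligand, and stayed at the dim end. It read 4.33, 4.30 and 4.47 in male and 4.19, 3.98 and 4.67 in female Stat3-/- tumours, against 4.61, 4.44 and 4.18 in IEC Stat3-/-. In the tumours of Stat3fl/fl mice it read 4.15, 4.13 and 3.93 in males and 4.10, 4.01 and 4.08 in females, against 4.46, 4.42 and 4.65 in IEC Stat3fl/fl. The Stat3fl/fl tumours were all below their IEC samples, with a difference of -0.44 ± 0.13 log2 (adjusted p = 0.00934 with limma), whereas the Stat3-/- difference was -0.09 (0.58). The call was lost after quantile normalisation (-0.24, adjusted p = 0.123) and without replicate 3 (-0.37, 0.057), and the value was -0.41 without replicates 9 and 15. The difference between the genotypes was 0.36 ± 0.19 (adjusted p = 0.554 with limma), so they were not shown to differ.

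Tgfa, the gene of the EGFR ligand transforming growth factor alpha, was not called in either genotype. Its 12 tumour arrays had a lowest, median and highest value of 8.02, 8.16 and 8.72, against 8.12, 8.23 and 8.42 in 6 IEC arrays, and the tissues overlapped. The differences were -0.09 (adjusted p = 0.55 with limma) in Stat3-/- and 0.03 (0.868) in Stat3fl/fl tissue.

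Erbb3 encodes a receptor with little kinase activity of its own that needs a partner. It read 10.06, 10.23 and 10.61 in male and 10.77, 10.53 and 9.96 in female Stat3-/- tumours, against 10.96, 11.30 and 11.11 in IEC Stat3-/-. Among Stat3fl/fl tumours it read 10.67, 11.24 and 9.72 in males and 10.37, 10.28 and 9.64 in females, against 11.16, 11.13 and 11.50 in IEC Stat3fl/fl. Only male replicate 8 (11.24) reached the epithelial range, and the lowest values of all tumours were those of replicates 15 and 9. Erbb3 was lower, with a difference of -0.76 ± 0.27 log2 (1.69-fold, adjusted p = 0.0222 with limma) in Stat3-/- tissue and -0.94 ± 0.27 (1.92-fold, 0.00705) in Stat3fl/fl tissue, and -0.63 (0.0204) without replicates 9 and 15. The Stat3-/- call was lost without replicate 5, 6 or 18 (adjusted p 0.0813, 0.0545 and 0.0505) and the Stat3fl/fl call when male tumours alone were used (-0.72, 0.0758).

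Erbb2 encodes the receptor with no known ligand of its own that other ERBB receptors prefer as a partner. It read 8.45, 8.74 and 8.85 in male and 8.97, 8.82 and 8.47 in female Stat3-/- tumours, against 8.99, 9.32 and 9.24 in IEC Stat3-/-, so the Stat3-/- tissues did not overlap. Stat3fl/fl tumours read 9.03, 9.25 and 8.74 in males and 8.98, 8.71 and 8.62 in females, against 9.28, 9.09 and 9.43 in IEC Stat3fl/fl, which overlapped. Erbb2 was lower, with a difference of -0.46 ± 0.16 log2 (1.38-fold, adjusted p = 0.0159 with limma) in Stat3-/- and -0.38 ± 0.16 (1.3-fold, 0.0428) in Stat3fl/fl tissue. The Stat3fl/fl call was lost in 10 of 19 alternatives, among them the removal of replicates 9 and 15 (-0.28, adjusted p = 0.158), and the Stat3-/- call was lost without replicate 5 (0.0694) or 6 (0.0547).

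Egfr encodes the receptor of most of these ligands. It read 8.54, 9.22 and 9.0 in male and 9.01, 9.58 and 8.83 in female Stat3-/- tumours, against 8.17, 8.44 and 8.38 in IEC Stat3-/-. Stat3fl/fl tumours read 9.20, 9.39 and 8.35 in males and 8.73, 8.80 and 8.69 in females, against 8.51, 8.39 and 8.83 in IEC Stat3fl/fl. Egfr was higher by 0.70 ± 0.22 log2 (1.62-fold, adjusted p = 0.0108 with limma) in Stat3-/- tissue, where tumours and IEC did not overlap. In Stat3fl/fl tissue the difference was 0.28 ± 0.22 (adjusted p = 0.261), and it was 0.44 (0.0477) without replicate 9, the lowest tumour, but not called without replicates 9 and 15 together (0.46, 0.0593). The Stat3-/- call was lost after quantile normalisation (0.44, 0.0962), without replicate 4 (0.62, 0.0535) and with male tumours alone (0.59, 0.082). The difference between the genotypes was 0.41 ± 0.31 (adjusted p = 0.644), so Egfr was not shown to differ between them.

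**Figure D2:**
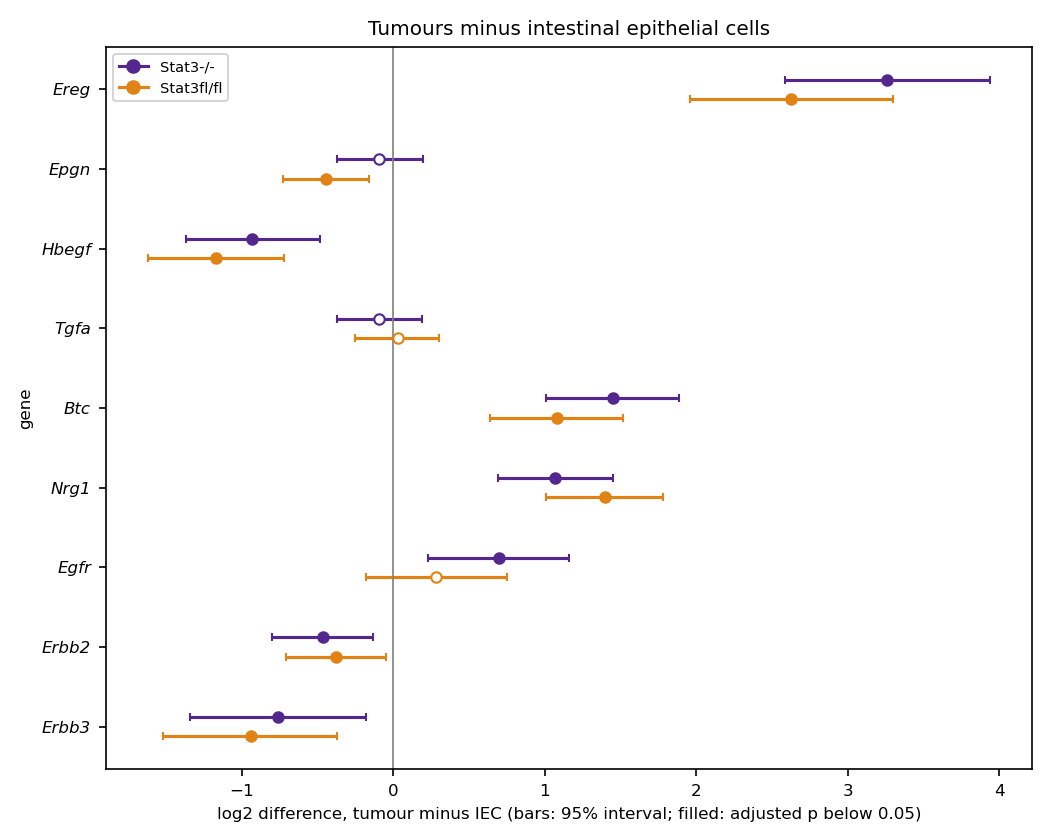
Tumour minus IEC difference in log2 value (horizontal axis) for each of the 9 genes, with 95% confidence intervals, in Stat3-/- and in Stat3fl/fl tissue; filled points passed an adjusted p under 0.05. Ereg lies farthest to the right in both genotypes (3.26 and 2.63), and Hbegf farthest to the left (-0.93 and -1.17).

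None of the 9 genes passed limma's test for the deletion of Stat3 in the epithelium, with or without replicates 9 and 15. In male tumours 0 of 9 were called, against 0.231% of all genes, and in female tumours 0 of 9, against 0.104%, with 0 at an unadjusted p under 0.05 in both (1302 and 871 of all genes). In tumours of both sexes together 0 of 9 were called, against 0.71%, and Epgn alone had an unadjusted p under 0.05 (2081 of all genes). In IEC, 0 of 9 were called, against 0.0231% of all genes, and 0 of 9 had an unadjusted p under 0.05 (1178 of all genes). So few genes were called at all that a count of 0 of 9 is near the background. The IEC groups also differed in T and NK cell markers, with array means of 7.83 to 9.52 in Stat3-/- and 7.06 to 7.74 in Stat3fl/fl. Their median difference was 1.29, with 0 of 7 called, and their part in the IEC values was not tested. In Stat3-/- minus Stat3fl/fl tumours of both sexes, small-intestinal segment markers had a median difference of -2.03 (1 of 3 lower). That of posterior gut markers was -1.30 (0 of 3 called) and that of absorptive enterocyte markers 0.92 (0 of 8 called). Replicates 9 and 15, both Stat3fl/fl, are among these tumours. The part of these lists in the tumour values of the 9 genes was not tested.

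The intervals give the sizes that these groups of 3 leave possible. For Ereg the difference was 0.65 in male tumours (95% interval -0.13 to 1.43), -0.13 in female tumours (-0.91 to 0.65) and -0.37 in IEC (-1.15 to 0.41). For Btc it was 0.26 in male tumours (-0.25 to 0.76), 0.43 in female tumours (-0.08 to 0.93) and -0.02 in IEC (-0.53 to 0.48). For Egfr it was -0.06 in male tumours (-0.60 to 0.48), 0.40 in female tumours (-0.14 to 0.93) and -0.25 in IEC (-0.78 to 0.29). Tgfa had the narrowest intervals: -0.23 in male tumours (-0.55 to 0.09), -0.07 in female tumours (-0.39 to 0.25) and -0.03 in IEC (-0.35 to 0.29). In male tumours, female tumours and IEC, Hbegf differed by 0.13, 0.16 and -0.10 and Nrg1 by -0.10, -0.14 and 0.21. Of the receptors, Erbb2 differed by -0.32 (-0.71 to 0.06), -0.02 (-0.40 to 0.36) and -0.09 (-0.47 to 0.30) in these tissues and Erbb3 by -0.24 (-0.91 to 0.43), 0.32 (-0.34 to 0.99) and -0.14 (-0.81 to 0.53).

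Replicates 9 and 15 moved several of these values. Without them, Egfr differed by -0.38 in male tumours (-0.88 to 0.12, adjusted p = 0.787 with limma) and 0.37 in female tumours, and Erbb3 by -0.65 in male (-1.19 to -0.12, 0.471) and 0.10 in female tumours (-0.44 to 0.63). Ereg differed by 0.45 in male and 0.14 in female tumours, Erbb2 by -0.45 (-0.87 to -0.04, 0.553) and -0.09, Hbegf by -0.04 and 0.02, and Nrg1 by -0.07 and 0.06. Erbb3 and Erbb2 in male tumours then had unadjusted p-values of 0.0201 and 0.0353. Btc (0.21 and 0.38), Tgfa (-0.22 and -0.03) and Epgn (0.22 and 0.22) were not called either.

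The groups of 3 did not overlap in 3 of the 27 combinations of gene and tissue. Epgn read 4.33, 4.30 and 4.47 in male Stat3-/- tumours, against 4.15, 4.13 and 3.93 in male Stat3fl/fl tumours (0.30 log2, adjusted p = 0.738 with limma), where 10.1% of all genes did not overlap. Btc and Egfr were apart in female tumours (0.43 and 0.40, both adjusted p = 0.997), where 15.6% of all genes were; in IEC 14.1% of all genes and none of the 9 were. Over both sexes, Epgn differed by 0.25 ± 0.11 (unadjusted p = 0.0341, adjusted p = 0.36), and by 0.22 without replicates 9 and 15 (0.106 and 0.645).

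The deletion effect was also compared between settings. Between female and male tumours 0 of 9 genes were called, and 0% of all genes, with 0 of 9 and 162 of all genes at an unadjusted p under 0.05. For Ereg it was -0.78 ± 0.52 (female minus male, 95% interval -1.88 to 0.32, adjusted p = 1 with limma), and -0.31 ± 0.54 without replicates 9 and 15. For Egfr it was 0.46 ± 0.36, and 0.75 ± 0.33 without them (unadjusted p = 0.04, adjusted p = 1), and for Erbb3 0.57 ± 0.45, and 0.75 ± 0.36 without them (0.0522 and 1). Between tumours and IEC 0 of 9 were called, against 0.0116% of all genes (1624 at an unadjusted p under 0.05), and Ereg differed by 0.63 ± 0.45 (-0.32 to 1.59, adjusted p = 0.632).

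**Figure D3:**
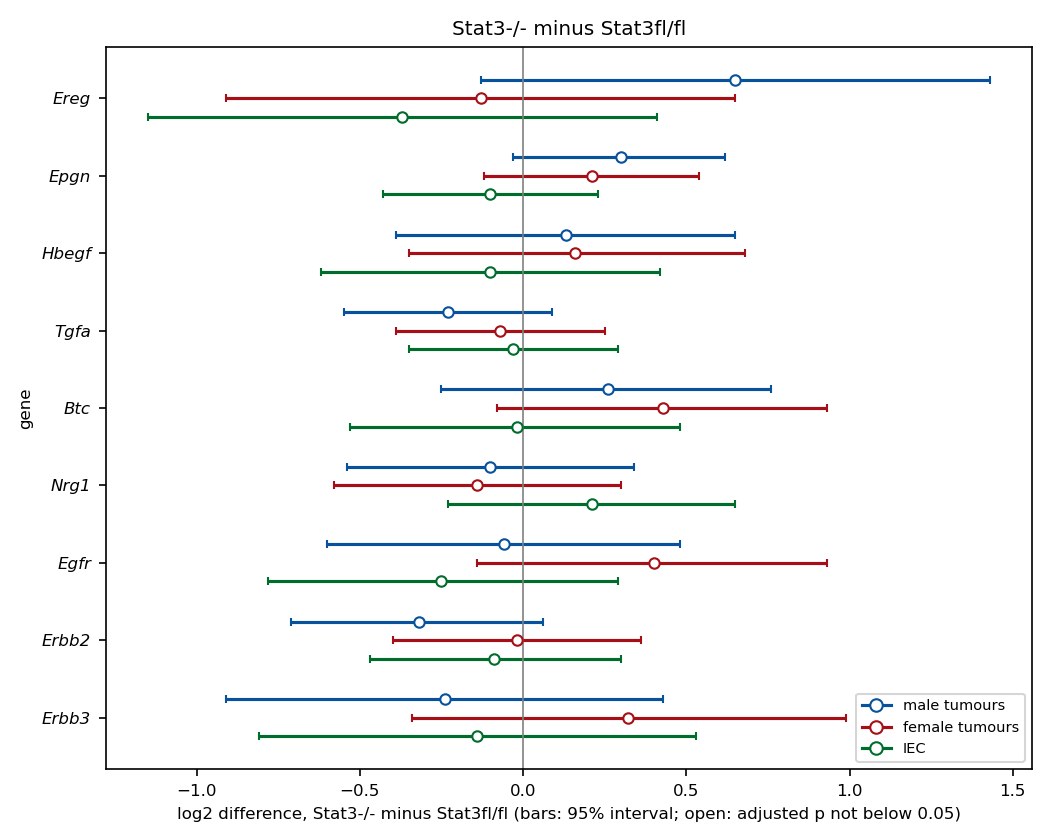
Stat3-/- minus Stat3fl/fl difference in log2 value (horizontal axis) for each of the 9 genes, with 95% confidence intervals, in tumours of males, tumours of females and IEC. All points are open because none passed an adjusted p under 0.05.

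Male and female tumours were compared over both genotypes. None of the 9 genes was called, against 0.0231% of all genes. Ereg had the only unadjusted p under 0.05 (0.00282, with 1061 of all genes under it) and an adjusted p of 0.749 with limma. Male tumours read 8.41, 9.11 and 7.59 (Stat3-/-) and 8.11, 7.72 and 7.31 (Stat3fl/fl), against 8.36, 9.01 and 9.30 and 8.72, 8.77 and 9.56 in female tumours, a difference of -0.91 ± 0.26. The lowest male and the highest female value were those of replicates 9 and 15, and without them the difference was -0.68 ± 0.27 (unadjusted p = 0.0236, adjusted p = 0.669). In Stat3fl/fl tumours the sexes did not overlap and in Stat3-/- tumours they did.

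The other genes of the pathway were read from lists fixed by name, of which 42 of 47 had a named probe set and all 42 were tested. In tumours against IEC, 21 were higher and 9 lower in Stat3-/- tissue (median 0.38) and 20 higher and 10 lower in Stat3fl/fl tissue (median 0.37). Of all genes, 30.3% were higher and 36.2% lower in Stat3-/- tissue, and 30.4% and 35.3% in Stat3fl/fl tissue. The counts by role below stand against the same shares, and lists this short are not read as results about a role. All 4 genes that release ligands were higher in both genotypes. Adam17, the main sheddase of EGFR ligands, was higher by 1.11 in Stat3-/- and 0.75 in Stat3fl/fl tissue, Adam10, another sheddase, by 1.27 and 0.94, and the iRhom genes Rhbdf1 by 0.60 and 1.10 and Rhbdf2 by 0.34 and 0.45. Of 5 other family members none was higher. Nrg2, Nrg3 and Erbb4 were lower in both genotypes (-0.41, -0.43 and -0.55 in Stat3-/- tissue), and Egf was lower in Stat3-/- tissue (-0.60); Nrg3, Erbb4 and Egf were above no array's median.

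Among 11 adaptors and kinases, 5 were higher and 2 lower in Stat3-/- tissue and 4 higher and 2 lower in Stat3fl/fl tissue. Of 10 inhibitors, 7 were higher and 0 lower in Stat3-/- tissue and 6 higher and 1 lower, Lrig3 (-0.75), in Stat3fl/fl tissue. Spred1, which blocks RAF activation, was higher by 2.22 ± 0.18 in Stat3-/- and 2.38 ± 0.18 in Stat3fl/fl tissue. Cblb, a ubiquitin ligase of receptors, was higher by 1.72 and 1.53, and Lrig1, a membrane inhibitor of ERBB receptors, by 1.41 and 1.42.

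Of 12 target genes of ERK, 5 were higher and 3 lower in Stat3-/- tissue and 6 higher and 4 lower in Stat3fl/fl tissue. Etv5, an ETS transcription factor, moved most: its tumour arrays had a lowest, median and highest value of 8.57, 9.06 and 9.51, against 5.15, 5.42 and 5.91 in IEC, a difference of 3.41 ± 0.22 in Stat3-/- and 3.82 ± 0.22 in Stat3fl/fl tissue (adjusted p = 1.82e-08 and 4.4e-09 with limma). Phlda1 was higher by 2.34 and 1.94, Myc, which is also a WNT target, by 1.63 and 2.73, the ERK phosphatase Dusp4 by 1.40 and 2.14, and Ier3 by 1.07 and 2.27. Fos, which is also on the handling-response list, was lower, with a difference of -1.42 in Stat3-/- and -1.67 in Stat3fl/fl tissue. Dusp5 (-0.89 and -0.74) and Epha2 (-0.78 and -0.95) were also lower in both genotypes. Dusp6 was lower in Stat3fl/fl tissue (-0.55) and not called in Stat3-/- tissue (0.16). Its Stat3fl/fl call, counted among the 4 lower, was lost without replicates 9 and 15 (-0.43, adjusted p = 0.107 with limma). These counts carry the same difference in tissue makeup as the ligand values, and its part was not tested.

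After deletion of Stat3, 1 of the 42 genes was called in any comparison, that of tumours of both sexes, where 0.71% of all genes were called. Dusp6, an ERK phosphatase and ERK target, was higher in Stat3-/- tumours (0.78 ± 0.17 log2, 1.72-fold, adjusted p = 0.0475 with limma). The call was lost in 14 of 21 alternatives, with differences of 0.63 to 0.85 and adjusted p of 0.0177 to 0.139 over all of them, and 0.67 (0.135) without replicates 9 and 15. Leaving out any tumour other than replicate 7 ended it. The difference was 1.01 in male tumours (adjusted p = 0.151) and 0.55 in female tumours (0.958), and 0.08 in IEC (0.961). The deletion effect in tumours minus that in IEC was 0.70 ± 0.30 (adjusted p = 0.51), so it was not shown to differ between them. Over both sexes, the 12 ERK target genes had a median difference of -0.04, with 1 called higher and 0 lower. The next in size after Dusp6, Ier3 (-0.61) and Dusp4 (-0.51), had the opposite sign and were not called. Small-intestinal segment markers (Gata4, Fabp6, Slc10a2) were at array means of 5.85 to 6.24 in male and 5.99 to 6.36 in female Stat3-/- tumours, against 5.97 to 9.23 in male and 6.49 to 8.06 in female Stat3fl/fl tumours (1 of 3 lower over both sexes, median -2.03). Gata4 itself was low only in replicates 9 and 15, as given above, so the low Stat3-/- means lie in Fabp6 and Slc10a2. The part of these markers in the Dusp6 difference was not tested.

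**Figure D4:**
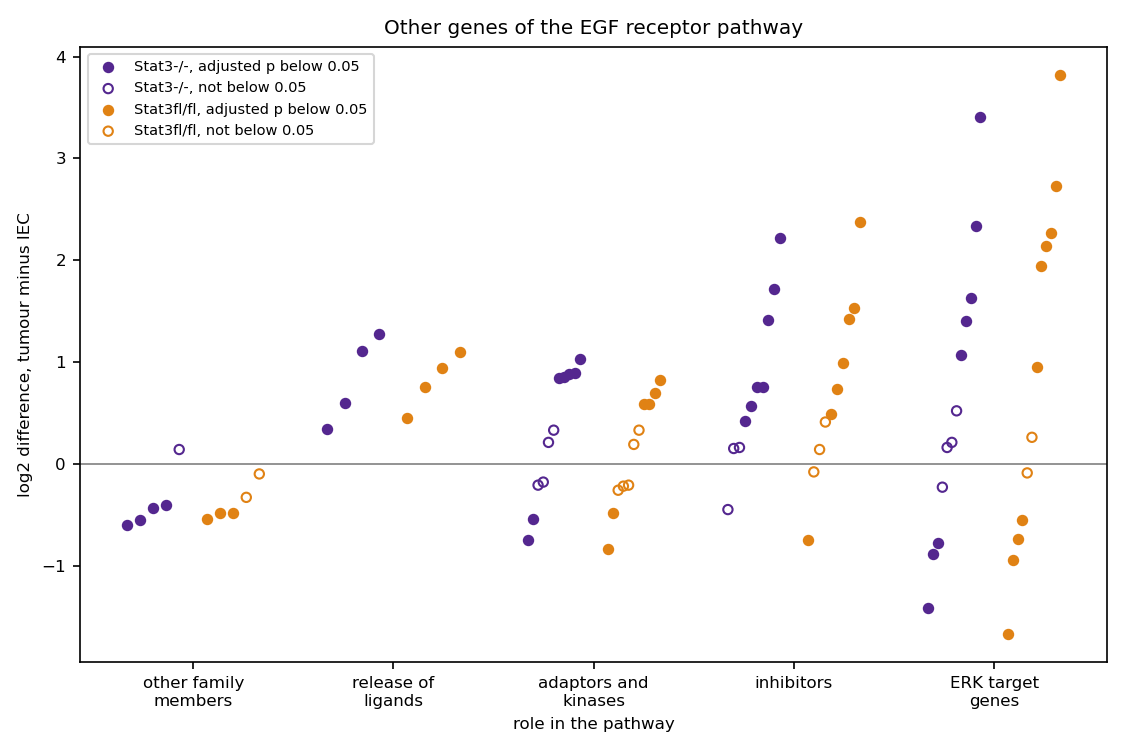
Tumour minus IEC difference in log2 value (vertical axis) of the 42 other pathway genes, by role (horizontal axis), for Stat3-/- and Stat3fl/fl tissue. Filled points passed an adjusted p under 0.05. The 4 release genes and Spred1 and Cblb among the inhibitors lie above 0 in both genotypes.

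For the 5 family genes whose group means spanned more than 1 log2, the genes most like them were found by the root mean square difference over 18 arrays, after subtracting each gene's mean. For Ereg these were Inhba (0.47), Plau (0.52) and Sfrp1 (0.54), for Btc Tusc3 (0.23), Usp24 (0.24) and L3mbtl3 (0.24), and for Nrg1 Foxf2 (0.17), Ccp110 (0.17) and Isg20l2 (0.19). For Hbegf they were Tradd (0.16), Dok4 (0.16) and Arhgef16 (0.17), and for Erbb3 Rab4a (0.14), Gde1 (0.15) and Plec (0.16). All of these share the arrays and the tissue difference.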

How the data were processed

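The deposited series table holds log2 values of 35556 probe sets on 18 arrays, which the authors made with RMA, per the submitters' processing notes; the version is not given in the sources used here. RNA was extracted with a column kit and labelled with biotin through the Affymetrix WT kit, per the labels' protocols. Of the probe sets, 21789 carried 1 gene symbol, 1621 several and 12146 were not listed; 21698 matched the RefSeq gene table. Each gene was read from its probe set with the highest mean. Genes above an array's 25th percentile on at least 3 arrays were tested with limma 3.58.1 in R 4.3.3 (lmFit, eBayes with intensity trend), with 1 mean for each of 6 groups and Benjamini-Hochberg adjustment over 17316 genes. The fit was tested on simulated data. The array number limits the precision.

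The family genes, lists and tests were chosen with earlier results of these data known. Named genes were the 10 listed, Stat3, the 8 largest passing pathway genes per comparison and the 3 genes nearest to each family gene whose group means spanned more than 1; small gene groups were also named whole. Alternatives changed the filter, normalisation, samples, weights, trend and probe set rule. Promoter sequences are from RefSeq (GRCm38.p6). Areg and a probe set listing Erbb2 with another gene have no value here.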

Additional observations from a re-analysis of the deposited data

How the results depend on the processing

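The number of family genes called stayed within 1.5 times of its value in all 170 alternatives of the 9 comparisons: it was 5 to 7 in tumours against IEC of each genotype and 0 in every other comparison. Of 258 alternative values for the 14 calls on single genes, 237 kept their call, 21 lost it and 0 changed sign. Ereg, Btc, Nrg1 and Hbegf kept theirs in both genotypes throughout: Ereg ranged from 3.0 to 3.53 (Stat3-/-) and 1.98 to 2.77 (Stat3fl/fl), Btc from 1.02 to 1.72 and 0.82 to 1.18. The choice to use male tumours alone was made after seeing the data. Of 67 uncalled pairs of gene and comparison, 29 changed sign in some alternative and 1, Egfr in Stat3fl/fl tissue, was called in 1. Counts over all genes moved more. For the deletion they ranged from 2 to 1134 in IEC (4 in the reported fit), 2 to 117 in male tumours (40), 0 to 745 in female tumours (18) and 43 to 1414 over both sexes (123), and the tumour minus IEC effect from 1 to 1038 (2); apart from male tumours, the highest came with array weights, which ran from 0.16 to 4.87. With male tumours alone, the tumour counts over all genes were 8089 (Stat3-/-) and 7740 (Stat3fl/fl). No paired analysis was possible because the replicate numbers are unique over the series and pair no samples.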
